A study of Drosophila melanogaster with 12 samples.

Results

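The early transcript response to X-rays was examined in Drosophila melanogaster embryos at stages 13 to 15, the window that the sample titles call resistant. The comparison took the 6 arrays of that window, out of 12 in the series, by their titles: 3 of irradiated embryos and 3 of untreated control embryos. All embryos were of the C-S strain, and irradiated embryos were collected 15 to 20 minutes after treatment. No label used here states the X-ray dose. Each group also carries the numbers 1, 2 and 3 in the titles, so every irradiated array has a control array of the same number. The other 6 arrays, irradiated and control embryos of the same strain at stages 9 to 11 (the sensitive window), were used for the estimate of the spread and to test where the responses differed. Total RNA of whole embryos was measured, so fewer cells of a type and less RNA per cell cannot be told apart. No label says whether same-group arrays came from separate collections of embryos, and p-values measure the spread between these arrays, part of which may be technical.

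The array table lists 13966 gene probe sets beside 44 array controls, and 10139 of them were bright enough to be tested (above an intensity of 29.9 on at least 3 of the 12 arrays). A probe set is a group of short probes designed against a transcript, and some can bind related transcripts too. A RefSeq gene table named 133 probe sets (131 genes), and 109 of these (107 genes) were tested. The 24 named probe sets that were not tested had group means of at most 30.2.

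Ionizing radiation breaks DNA. In flies the damage is sensed by kinases of the ATM and ATR type and their partner Chk2, which activate the transcription factor p53. p53 then switches on cell death genes such as reaper, hid and sickle, whose products release the cell death proteases from their inhibitor, Diap1. Embryos lose much of this death response as development goes on: at stages 9 to 11 the germ band is extended and many cells still divide, while at stages 13 to 15 it has retracted and most cells are leaving the cell cycle and differentiating. Reaper, hid, sickle, p53, Diap1 and the checkpoint kinases are among the genes not analysed by name here, so the results turn on other genes and on counts over all probe sets.

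The control arrays of the windows differed in genes listed as stage markers. Several of the listed markers were known from an earlier report on these data, so they are no independent check of the labels. Between control embryos of stages 13 to 15 and of stages 9 to 11, betaTub60D, a tubulin of developing muscle, differed by 2.61 on the log2 scale, while the segment polarity gene en differed by −1.98 and RPA2, a DNA replication protein, by −2.31. The 6 arrays ranked the tested probe sets with Spearman correlations of 0.816 to 0.945, and no pair shared over 0.523% of its values. The spread differed by array number. The differences between the irradiated and the control array of a number had an SD over probe sets of 0.712 and 0.695 on the log2 scale for numbers 1 and 2, against 0.418 for number 3. In number 1, 1577 probe sets differed by over 2-fold, in number 2 1522 and in number 3 386. The arrays numbered 3 also stood apart in the array controls: the BioB spike-in (middle probe set) read 226 and 235 on them, against 586 to 1443 on the other 4. The 5′ over 3′ ratio of the actin control, which drops where RNA is broken or labelled short, was 0.159, 0.138 and 0.325 on control arrays 1, 2 and 3 and 0.267, 0.211 and 0.393 on irradiated ones. It was higher on the irradiated array in all 3 numbers, as was the ratio of the eIF-4a control (0.0390, 0.0524 and 0.155 against 0.0550, 0.0578 and 0.200), while that of GAPDH was higher in 1 of 3 numbers. The part of these ratios in the gene differences below was not tested.

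**Figure D1:**
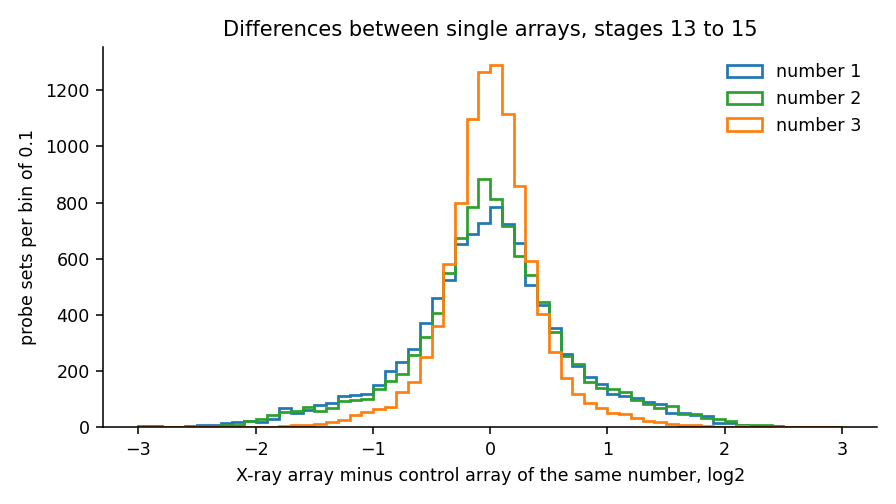
The histogram plots, for each array number, the log2 difference between the irradiated and the control array of stages 13 to 15 over 10139 probe sets (values beyond 3 are drawn at 3). The curve of number 3 is the narrowest, with an SD of 0.418 against 0.712 and 0.695 for numbers 1 and 2.

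The first question is which transcripts differed between irradiated and control embryos at stages 13 to 15. None passed the test: the adjusted p from limma was under 0.05 for 0 of 10139 probe sets (0%), with Benjamini-Hochberg adjustment, and the smallest adjusted p was 0.521. Without adjustment, 503 probe sets (4.96%) had a p under 0.05, 301 with the higher level after X-rays and 202 with the lower, where an even spread of p-values gives 507. The 503 come from a fit without the replicate number. With the replicate number as a block in the fit, the count was 736 (7.26%), and the smallest adjusted p from limma was 0.0702. In the 6 arrays of stages 13 to 15 alone with that block, it was 781 (7.7%). Both counts lie above 507, so the closeness to an even spread did not hold with the block. Over the 26 alternatives the share ran from 3.6% to 8.97%. In the main fit, the smaller thresholds left 100 probe sets under 0.01 and 7 under 0.001. Under other settings limma gave 0 calls in 23 of 26 alternatives. It gave 1 call, a different probe set with no gene name each time, when control replicate 3, X-ray replicate 3 or all 4 arrays numbered 3 were left out. The count at an unadjusted p under 0.05 was 909 without control replicate 3 and 868 without the arrays numbered 3.

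**Figure D2:**
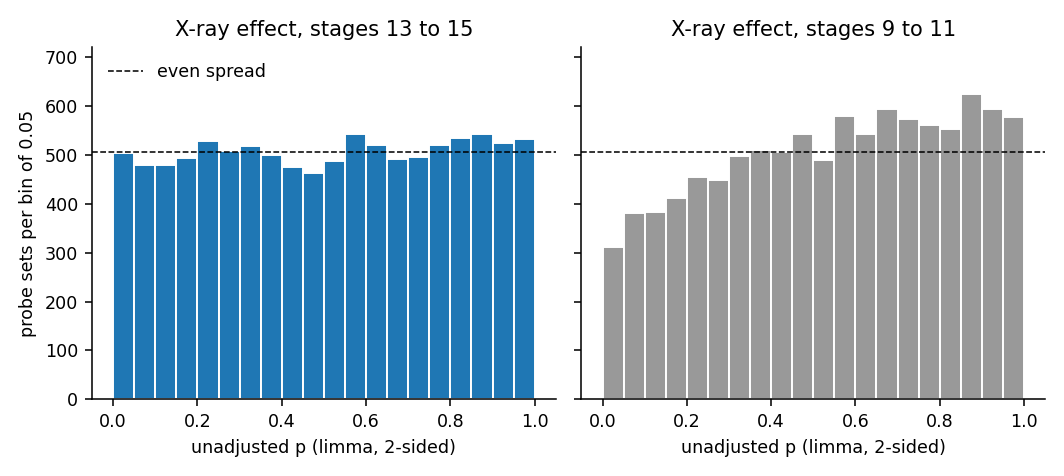
The histograms plot the unadjusted limma p-values of 10139 probe sets for X-rays against control in each window, from the fit without the replicate number. A dashed line marks the height of an even spread. The bars of stages 13 to 15 lie close to the line throughout, with 503 probe sets in the lowest bin, against 312 in the lowest bin of stages 9 to 11.

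The log2 differences centred on 0, with a median of 0.00 and 90% of them between −0.62 and 0.62. Differences over 2-fold were seen for 192 probe sets (89 higher after X-rays and 103 lower). The 3 irradiated values all lay above the 3 control values for 511 probe sets (5.04%) and all below for 431 (4.25%), together 942 (9.29%), of which 124 also differed by over 2-fold (60 higher and 64 lower). A difference of the same sign within all 3 numbers was seen for 3055 probe sets (30.1%), and one of over 2-fold in the same direction within all 3 for 8 (6 higher and 2 lower). None of those 8 has a gene name here.

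How large a change these arrays still allow depends on the signal. For 5319 probe sets (52.5%) the 95% confidence interval of the X-ray effect lay within 2-fold in both directions, and for 9939 (98.0%) within 4-fold. In the dimmest of 4 equal bins of the tested probe sets, with a mean intensity of up to 36.7, the interval lay within 2-fold for 10.1%. In the bins above it the share was 36.5%, 72.4% and, for a mean intensity of at least 154, 90.9%. The median half-width of the interval was 0.99 on the log2 scale in the dimmest bin and 0.45 in the brightest. These folds are on the log2(intensity + 13.3) scale, which understates the change of dim probe sets: with 0.25 times the pseudocount the share within 2-fold was 41.5%, and a pseudocount 4 times as large gave 94.5%. For most probe sets in the 2 dimmer bins, the interval therefore did not exclude a change of over 2-fold.

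**Figure D3:**
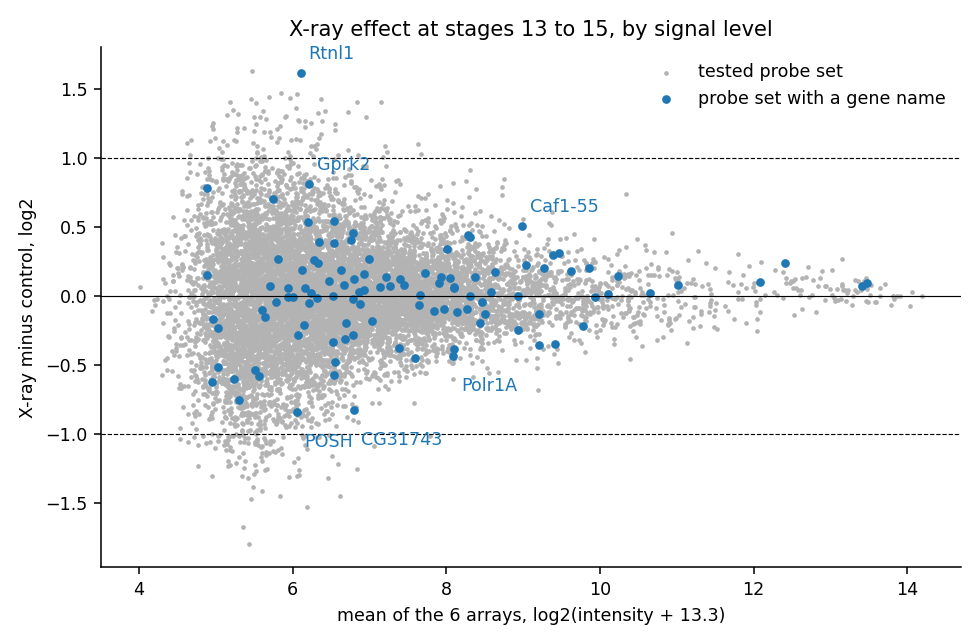
Each point is a probe set, with the mean of the 6 arrays of stages 13 to 15 across, log2(intensity + 13.3), and the irradiated minus control log2 difference up; blue points have a gene name and dashed lines mark 2-fold. The points widen toward low signal, and Rtnl1 is the only blue point beyond a dashed line.

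The lowest p-values belonged to probe sets with no gene name. 154370_AT had intensities of 139, 129 and 101 on control arrays 1, 2 and 3 and of 278, 279 and 274 on the irradiated ones. The groups did not overlap, the irradiated values were close to each other, and the log2 difference was 1.10 ± 0.20 (SE, 95% interval 0.68 to 1.52, adjusted p = 0.521), and the 3 numbers taken alone gave 0.94, 1.04 and 1.33. 153486_AT read 26.2, 25.6 and 54.3 in controls and 84.5, 87.2 and 122 after X-rays, again without overlap and with the control array numbered 3 the highest of its group (log2 difference 1.22 ± 0.27, adjusted p = 0.855). Control arrays 1 and 2 were dimmer than the filter value, and 4 times the pseudocount gave 0.78.

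On the negative side stood 153696_at, with 73.2, 59.4 and 49.1 in controls and 5.40, 12.4 and 11.6 after X-rays. Every irradiated value was dimmer than the filter value, so the size of the difference (−1.68 ± 0.37, adjusted p = 0.855) rests on signal close to background. A pseudocount of 0.25 times the main one gave −2.31 and one of 4 times gave −0.85. 154074_AT read 84.9, 52.4 and 53 against 27, 19.2 and 21.8, also without overlap and also with dim irradiated values (log2 difference −1.07 ± 0.25, −0.61 with 4 times the pseudocount, adjusted p = 0.855). None of these 4 probe sets passed under any of the 26 alternatives.

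Among the 109 named probe sets, 4 had an unadjusted p under 0.05, 3 with the higher level after X-rays (Rtnl1, Caf1-55 and Prosalpha5) and 1 with the lower (Polr1A). That is 3.67% of the named, beside 4.96% of all. An interval within 2-fold was found for 78 of them (71.6%, beside 52.5% of all) and one within 4-fold for 106. The share within 2-fold depends on the signal, and the named were not matched to all probe sets for signal. Of the 14 gene lists by role that held a named gene, 0 had a member past the adjusted threshold in either direction. The lists together had 41 tested genes, whose values follow by role. Of 61 genes and probe sets followed through the alternatives, 46 had a difference that changed sign or moved by over 1.5 times when 1 of the 6 arrays was left out. The 15 that did not were the 4 unnamed ones above, Rtnl1, Polr1A, Prosalpha5, Prosbeta7, POSH, PKD, CG31743, CG16926, Jheh1, Shmt and iotaTry. All 15 ranked among those picked for a low p in these same arrays. Such a choice favours differences that move little, so the list is no separate support. A difference near 0, such as that of RPA2 or Oat, counts as moved after a small shift. The fits with 1 array left out held no replicate block. Every adjusted p printed is from limma with Benjamini-Hochberg adjustment over all 10139 probe sets, and it was 1.00 after rounding for 106 of the 109.

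**Figure D4:**
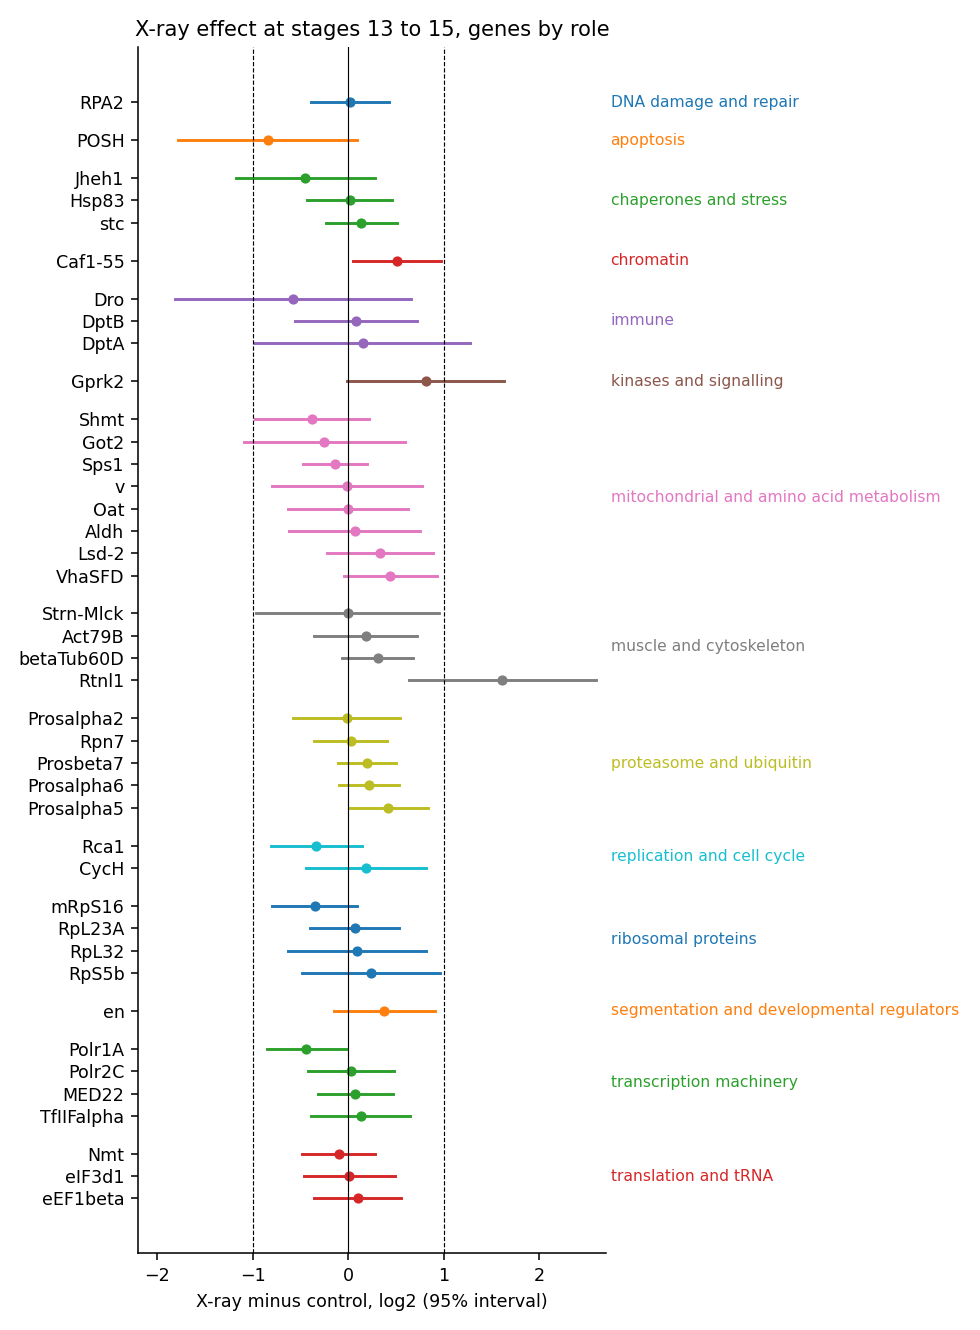
Points give the irradiated minus control log2 difference at stages 13 to 15 for the 41 tested genes of the 14 role lists, bars the 95% confidence interval of limma, and dashed lines 2-fold in each direction; colours separate the lists. Most bars lie between the dashed lines, and those of Rtnl1, Gprk2, POSH, Dro, DptA, Jheh1 and Got2 cross 1 of them or more.

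The cell death list had 1 tested gene, POSH, which encodes a scaffold protein and ubiquitin ligase of JNK signalling, a pathway that can lead to cell death. POSH read 85.3, 81.8 and 62.1 in controls 1, 2 and 3 and 26.1, 44.7 and 40.2 after X-rays. All irradiated values were below all control values, and the log2 difference was −0.84 ± 0.44 (SE, 95% interval −1.78 to 0.10, adjusted p = 1.00), and the numbers alone gave −1.32, −0.71 and −0.50. Irradiated array 1 was dimmer than the filter value. With 4 times the pseudocount the difference was −0.52. Mkk4, a kinase of the same pathway that is outside the list and was chosen after its value was seen, differed by 0.06 ± 0.27 (SE).

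RPA2, a subunit of the complex that coats single-stranded DNA in replication and repair, was the 1 tested gene of the DNA damage list. It read 60.9, 57.4 and 66.5 in controls and 64.3, 61.4 and 61.7 after X-rays, overlapping groups with a log2 difference of 0.02 ± 0.19 and an interval of −0.39 to 0.43. PolZ1, the catalytic subunit of the polymerase that copies past damaged bases, differed by −0.54 ± 0.42 (SE). That value rests on 1 control array: the controls read 114, 20.5 and 25.7 and the irradiated arrays 15.3, 29.5 and 31.3, and without control replicate 1 the difference was 0.06. Another set of repair genes lies outside the list and was chosen after the values were seen. RfC4, a subunit of the clamp loader, differed by −0.28 ± 0.23, and −0.21, −0.41 and −0.23 within the numbers. The damage-recognition gene pic, the fly counterpart of DDB1, differed by 0.29 ± 0.29, with 0.12, 0.64 and 0.12 within the numbers, and mrn, a subunit of the repair and transcription factor TFIIH, by −0.02 ± 0.24. In all of these genes the groups overlapped.

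Chromatin and transcription genes held a pair of the 4 lowest p-values among the named. Caf1-55, the histone-binding protein shared by chromatin assembly and Polycomb complexes, read 366, 309 and 613 in controls and 581, 524 and 677 after X-rays. The control array numbered 3 was above the irradiated arrays 1 and 2, so the groups overlapped. The log2 difference was 0.51 ± 0.22 (SE, 95% interval 0.05 to 0.97, adjusted p = 0.985) and 0.64, 0.74 and 0.14 within the numbers. It was 0.31 without control replicate 2 and 0.79 without control replicate 3. Bin1, a partner of histone deacetylase complexes, read 782, 581 and 625 and 628, 328 and 644, with only irradiated array 2 well below the rest (log2 difference −0.36 ± 0.25, −0.05 without that array).

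Polr1A encodes the large subunit of RNA polymerase I, which transcribes ribosomal RNA. It read 255, 344 and 318 in controls and 235, 182 and 250.4 after X-rays, and all irradiated values lay below all control values. Its log2 difference was −0.44 ± 0.20 (SE, 95% interval −0.85 to −0.02, adjusted p = 0.997) and −0.11, −0.87 and −0.33 within the numbers. The other 3 genes of the transcription list were Polr2C, a subunit of RNA polymerase II (0.03 ± 0.21), the Mediator subunit MED22 (0.08 ± 0.19) and the initiation factor TfIIFalpha (0.13 ± 0.24). The list's median was 0.05 on the log2 scale, beside 0.00 over all probe sets, and the interval lay within 2-fold for all 4 members. The dimmer of the probe sets of bon, a chromatin cofactor, read 5.30, 5.0 and 20.2 and 55, 4.40 and 34.4, a log2 difference of 0.78 ± 0.66 that came mostly from irradiated array 1, and its brighter probe set differed by 0.24 ± 0.49.

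**Figure D5:**
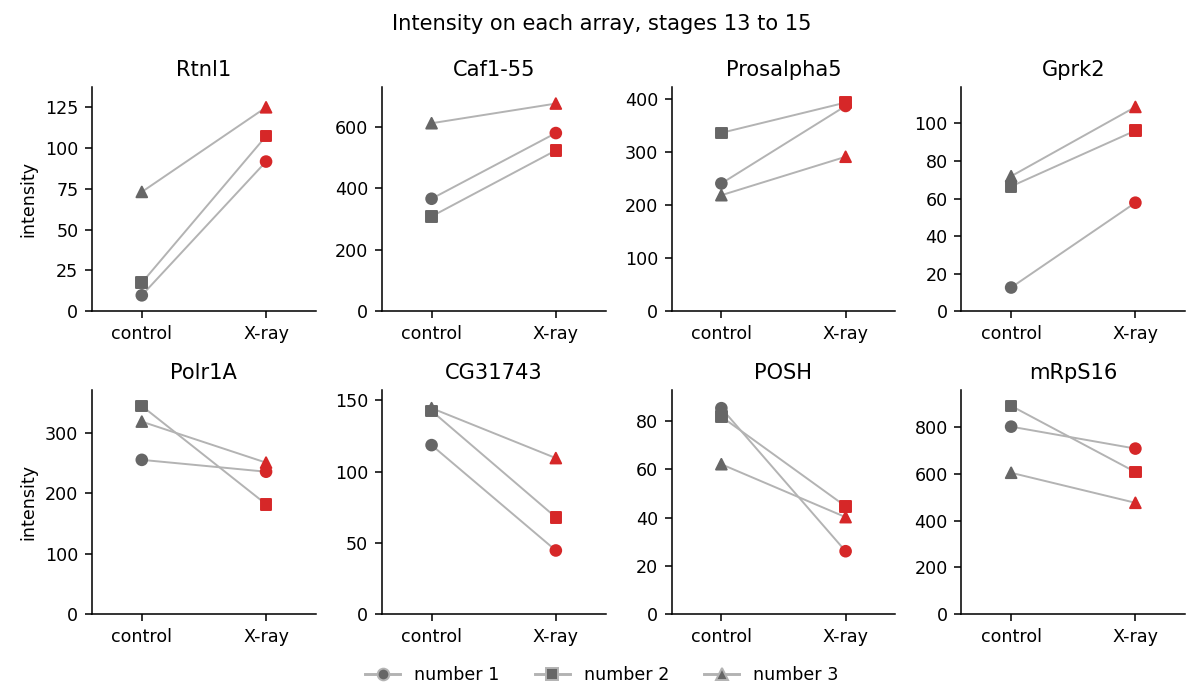
Intensity on each of the 6 arrays of stages 13 to 15 for the 4 named genes with the lowest unadjusted p in each direction; grey symbols are controls, red symbols irradiated embryos, lines join arrays of 1 number, and each axis starts at 0. The lines run 1 way in every panel, the groups overlap for Caf1-55, Prosalpha5, Gprk2 and mRpS16, and they do not for Rtnl1, Polr1A, CG31743 and POSH.

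The proteasome, which degrades proteins tagged with ubiquitin, was represented by 5 tested genes. 4 had a positive difference and 1 a negative one, with a median of 0.20 on the log2 scale beside 0.00 over all probe sets, and 0 passed. Prosalpha5, an alpha-ring subunit of the core particle, read 240.3, 336 and 218 in controls and 386, 392 and 290.5 after X-rays. Control array 2 lay above irradiated array 3, and the log2 difference was 0.42 ± 0.19 (SE, 95% interval 0.01 to 0.84, adjusted p = 1.00). The beta-ring subunit Prosbeta7 read 799.6, 877 and 881 and 1021, 1022 and 899, without overlap but with a log2 difference of only 0.20 ± 0.14. Prosalpha6 differed by 0.22 ± 0.15, Rpn7, a subunit of the regulatory lid, by 0.03 ± 0.18 and Prosalpha2 by −0.01 ± 0.26. All 5 intervals lay within 2-fold.

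Ribosomal protein genes gave 4 tested members, 3 with a positive difference and 1 with a negative one (median 0.08). mRpS16, of the mitochondrial ribosome, read 801, 889.9 and 604 in controls and 708, 608 and 476 after X-rays, a log2 difference of −0.35 ± 0.21 with overlap between the groups and −0.18, −0.54 and −0.34 within the numbers. The cytosolic members RpS5b (0.24 ± 0.34), RpL32 (0.10 ± 0.34) and RpL23A (0.07 ± 0.22) differed by less than their intervals. RpS5b read 6317, 6467 and 3029 in controls and 6852, 7068 and 4205 after X-rays, so its arrays numbered 3 were the lowest of both groups. Within the numbers the differences were 0.12, 0.13 and 0.47 for RpS5b and 0.24, 0.10 and −0.06 for RpL32. For RpL23A they were 0.17, −0.004 and 0.03. The SEs are from the fit without the replicate number, so differences between the numbers add to them. In translation, the elongation factor eEF1beta differed by 0.10 ± 0.21, the initiation factor eIF3d1 by 0.01 ± 0.22 and Nmt, which attaches myristate to new proteins, by −0.10 ± 0.18, each with an interval within 2-fold.

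Stress genes gave 3 tested members. Hsp83, the fly Hsp90 chaperone, read 1341, 1503 and 2001 in controls and 1629, 1415 and 1809.8 after X-rays, overlapping groups whose log2 difference of 0.02 ± 0.21 had an interval of −0.43 to 0.46. Jheh1, a juvenile hormone epoxide hydrolase, read 265, 199 and 183 against 156, 152 and 149, with all irradiated values below all controls (log2 difference −0.45 ± 0.34, adjusted p = 1.00). The zinc finger gene stc (shuttle craft) differed by 0.14 ± 0.17. Of the immune list, 3 members were tested, and each of them encodes an antimicrobial peptide. DptB differed by 0.08 ± 0.30, DptA by 0.15 ± 0.53 and Dro by −0.58 ± 0.58. The intervals of Dro (−1.82 to 0.66) and DptA (−0.98 to 1.28), both of them dim, went beyond 2-fold, so they did not exclude a change of that size.

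Rtnl1 had the lowest p of the named genes and the only named difference over 2-fold. It encodes a reticulon, a protein that shapes the endoplasmic reticulum, and had been put beside the cytoskeleton genes. Rtnl1 read 9.70, 17.4 and 73 on the 3 control arrays and 91.6, 107 and 125 on the irradiated ones. All irradiated values lay above all controls, but the controls were far apart: arrays 1 and 2 lay under the filter value and array 3 well above it. The log2 difference was 1.61 ± 0.46 (SE, 95% interval 0.63 to 2.59, unadjusted p = 0.00310, adjusted p = 0.925), and numbers 1, 2 and 3 alone gave 2.19, 1.97 and 0.68. A pseudocount 4 times as large gave 0.96, leaving out control replicate 3 gave 2.18, and Rtnl1 passed under none of the 26 alternatives.

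The other 3 genes of the cytoskeleton list were betaTub60D, Act79B and Strn-Mlck. betaTub60D read 583, 534 and 781 in controls and 762, 809 and 763 after X-rays, a log2 difference of 0.31 ± 0.17 with 0.38, 0.59 and −0.03 within the numbers. Act79B, a muscle actin, differed by 0.18 ± 0.25, and its probe set can also bind related transcripts, as the F in its identifier marks. Strn-Mlck, a muscle myosin kinase, differed by −0.01 ± 0.45, with 1.24, −1.12 and −0.14 within the numbers, so its mean near 0 hides array differences of over 2-fold in both directions.

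Signalling and developmental genes gave no call either. Gprk2, a kinase that turns off G protein-coupled receptors and acts in Hedgehog signalling, read 12.6, 66.5 and 71.9 in controls and 57.8, 96.2 and 109 after X-rays (log2 difference 0.81 ± 0.39, 95% interval −0.02 to 1.64, adjusted p = 1.00). Control array 1 was the lowest, and without it the difference was 0.25. Protein kinase D, encoded by PKD, read 80.1, 74.1 and 89.2 and 91.7, 138 and 123, without overlap and with a log2 difference of 0.46 ± 0.27. The gene en, which specifies the posterior part of each segment, read 71.6, 80.8 and 54.5 and 105, 121 and 61.5 (log2 difference 0.38 ± 0.25, interval −0.15 to 0.91). Of the cell cycle genes, Rca1, which keeps cyclin A from being degraded too early, read 121, 83.6 and 72.9 against 70.5, 72.8 and 64.2, with the irradiated values just below the controls (log2 difference −0.33 ± 0.22, −0.15 without control replicate 1), and CycH, a cyclin of the kinase that activates other cyclin-dependent kinases, differed by 0.19 ± 0.30.

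Metabolic genes gave 8 tested members, 4 positive and 4 negative, with a median of 0.00 and 7 intervals within 2-fold. VhaSFD, a subunit of the vacuolar proton pump, read 182, 243 and 371 in controls and 351, 313 and 395 after X-rays, with control array 3 above 2 of the irradiated arrays (log2 difference 0.44 ± 0.23, 0.89, 0.35 and 0.09 within the numbers, 0.22 without control replicate 1 and 0.70 without control replicate 3). Shmt, which supplies one-carbon units, read 172, 182 and 176 against 164, 121 and 117, without overlap (log2 difference −0.38 ± 0.28). Lsd-2, a perilipin of lipid droplets, differed by 0.33 ± 0.26, the mitochondrial aminotransferase gene Got2 by −0.25 ± 0.40, Sps1 by −0.14 ± 0.16, Aldh (aldehyde dehydrogenase) by 0.07 ± 0.32, Oat (ornithine aminotransferase) by 0.00 ± 0.30 and v (vermilion, of tryptophan breakdown) by −0.01 ± 0.37. Outside the list, ScsbetaG, a citric acid cycle subunit, differed by −0.20 ± 0.15.

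Among the other genes with low p, CG31743 read 118, 142 and 144 in controls and 44.7, 67.9 and 109 after X-rays, without overlap (log2 difference −0.83 ± 0.40, 95% interval −1.68 to 0.02, adjusted p = 1.00). The remaining ones were Fur2 (a furin-type protease, 0.53 ± 0.32, 0.22 without control replicate 2), CG16926 (0.54 ± 0.40), CG3708 (0.70 ± 0.53), CG3036 (−0.31 ± 0.21), iotaTry (a trypsin, −0.51 ± 0.37), bai (a cargo receptor of the secretory pathway, −0.22 ± 0.17) and CG6415 (−0.39 ± 0.30, −0.19 to −0.61 when 1 array was left out). Over the 109 named probe sets, the groups did not overlap for 11, which is 10.1% beside 9.29% of all. The irradiated values were all higher for 5 (4.59%, beside 5.04% of all), namely Rtnl1, PKD, Prosbeta7, CG3708 and Gabat. They were all lower for 6 (5.50%, beside 4.25% of all), namely Polr1A, CG31743, POSH, Rca1, Shmt and Jheh1. A difference of the same sign within all 3 numbers was seen for 40 (36.7%, beside 30.1% of all), 22 positive and 18 negative.

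The second question is where the response at stages 13 to 15 differed from that at stages 9 to 11. The difference between the X-ray effects, later minus earlier, passed for 2 of 10139 probe sets (0.0197%), with 460 at an unadjusted p under 0.05 and a median half-width of the interval of 1.03 on the log2 scale. Neither of the 2 has a gene name. 143796_AT read 171, 225 and 128 in controls of stages 13 to 15 and 304, 312 and 221 after X-rays, overlapping groups with the irradiated array higher in every number. Its effect there was 0.66 ± 0.33 (SE), against −2.46 ± 0.33 at stages 9 to 11, a difference of 3.11 ± 0.47 (SE, adjusted p = 0.0380). At stages 9 to 11 it read 232, 234.5 and 84 in controls and 24, 22.5 and 13.5 after X-rays. These irradiated values were all dimmer than the filter value, so the size of the difference rests on signal close to background. 153035_AT read 98.9, 116 and 67.5 and 30.2, 30 and 72.7, lower after X-rays in numbers 1 and 2 and level in number 3. Its effect was −0.95 ± 0.27 (SE), against 1.98 ± 0.27 at stages 9 to 11, a difference of −2.93 ± 0.38 (SE, adjusted p = 0.0123). In both, the larger effect lay in the earlier window. Both probe sets passed for X-rays at stages 9 to 11 (adjusted p = 0.0108 for each, from limma). Neither passed for X-rays at stages 13 to 15 alone. The interval of 143796_AT at stages 13 to 15 (−0.05 to 1.36) included 0. That of 153035_AT (−1.52 to −0.38) did not, but its adjusted p from limma was 0.925. The calls for the difference between the windows were lost in 16 and 10 of 24 alternatives. No probe set passed when any 1 of the 8 arrays numbered 1 or 2 was left out or without sensitive X-ray replicate 3. Leaving out resistant control or X-ray replicate 3 gave 1 call, and leaving out sensitive control replicate 3 gave 3. Without all arrays numbered 3, 12 passed.

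No named gene passed this test, so none was shown to respond differently in the later window. The lowest p on the positive side, where the later effect was the higher, was that of Rtnl1, with 1.61 ± 0.46 at stages 13 to 15 and −0.46 ± 0.46 at stages 9 to 11, a difference of 2.08 ± 0.65 (SE, unadjusted p = 0.00592, adjusted p = 0.995). The differences of the next 4 were 0.77 ± 0.33 for VhaSFD, 0.81 ± 0.35 for en, 0.43 ± 0.21 for Prosalpha6 and 0.74 ± 0.37 for Lsd-2, each with a negative earlier effect. On the negative side stood CG6415 (−1.34 ± 0.42, unadjusted p = 0.00601, adjusted p = 0.995), Polr1A (−0.54 ± 0.28), CG15203 (−0.86 ± 0.51), CG8219 (−1.64 ± 0.99) and Rca1 (−0.52 ± 0.32), each with a positive earlier effect. In that order, the effects at stages 13 to 15 were −0.39, −0.44, −0.04, −0.76 and −0.33. At stages 9 to 11 they were 0.96, 0.11, 0.82, 0.89 and 0.18. CG8219 read 37.2, 54.1 and 25.8 in controls and 2.20, 96.2 and 3.0 after X-rays at stages 13 to 15, so 1 irradiated array was the highest of the 6 and the others the lowest. The counts did not all lie the same way between the windows. 942 probe sets (9.29%) did not overlap at stages 13 to 15 and 724 (7.14%) at stages 9 to 11, and 192 and 148 differed by over 2-fold. A difference of over 2-fold in 1 direction within all 3 numbers was seen for 8 and 17. The adjusted p was under 0.05 for 0 and 2, and those 2 were 143796_AT and 153035_AT again. No test compared these counts.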

How the data were processed

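Total RNA of whole embryos was measured on arrays with 1 colour. The table the authors deposited holds intensities on a linear scale. Its arrays share a mean, trimmed by 2% at each end, to within 0.0023%, so they had been scaled before deposit. No source used here names the scanner software or a background correction. A pseudocount of 13.3, the table's 25th percentile, was added before taking log2, and the filter value of 29.9 is its 40th percentile. All 12 arrays were fitted with limma 3.58.1 in R 4.3.3 (4 group means, moderation with a trend, 8 residual and 7.26 prior degrees of freedom, 2-sided, Benjamini-Hochberg over all tested probe sets at 0.05). With 3 arrays a group, an exact permutation test reaches 0.1 at best, so single genes were tested only through the model.

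Probe sets were named by synonyms in a RefSeq table (Release 6 plus ISO1 MT). Named genes are the 15 with the lowest unadjusted p in each direction, every tested member of the role lists, 5 in each direction for the difference between windows, and 2 unnamed probe sets in each direction. 1 gene that the rule takes is not reported here. The comparison, the lists and these rules were chosen with earlier results of these data known. The code was tested on simulated data. Array intensities have no depth: the number of arrays limits the precision.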

Additional observations from a re-analysis of the deposited data

Results flagged for a closer look

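Only differences between the windows met a criterion for a closer look; groups of 3 arrays were not tested for single arrays far from the rest. When the later window's X-ray effect was tested against the earlier one's in limma with Benjamini-Hochberg adjustment, it differed for 143796_AT (3.11 on the log2 scale, later minus earlier window, adjusted p = 0.0380) and for 153035_AT (−2.93, adjusted p = 0.0123). In both, the estimated effects in the windows had opposite signs. Both probe sets passed at stages 9 to 11 (adjusted p = 0.0108 for each, from limma), and neither passed at stages 13 to 15 alone. In the later window the interval of 143796_AT (−0.05 to 1.36) included 0. That of 153035_AT (−1.52 to −0.38) did not, but its adjusted p from limma was 0.925.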

How the results depend on the processing

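Over 26 alternatives, 0 probe sets passed for X-rays at stages 13 to 15 in 23 of them, and 1 passed without the arrays numbered 3. Leaving out 1 array at a time gave 0 to 1 calls, 365 to 909 probe sets at an unadjusted p under 0.05, 4101 to 5450 with an interval within 2-fold, and 0 to 3 calls for the difference between the windows. The unadjusted count was 868 without the arrays numbered 3 and 781 in the 6 arrays of stages 13 to 15 alone with the replicate block. The interval count was 9582 with 4 times the pseudocount. For the difference between the windows, 1 probe set passed under quantile normalization, with 4 times the pseudocount, without a filter and with the stricter filter, 0 without the trend, and 12 without the arrays numbered 3. The causes were not tested. Deviations from the group means correlated between same-numbered arrays of stages 13 to 15 at 0.0998, 0.116 and 0.435, the first just under the limit of 0.1 for pairing, and at stages 9 to 11 at 0.176, 0.130 and 0.421, all over it. At stages 13 to 15, 4 of 6 arrays correlated best with their own number. With the replicate number as a block in the fit of 12 arrays, 0 probe sets passed, the smallest adjusted p was 0.0702, and 736 had an unadjusted p under 0.05. Of the 61 genes and probe sets followed through the alternatives, 0 passed in any of them and 38 kept their sign in all. The other 23 changed sign in at least 1, among them RPA2, Hsp83 and RpL32.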
